A study of Mus musculus with 8 samples.

Results

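The solute carriers are the membrane proteins that move amino acids, sugars, transmitters, ions, metals, vitamins and mitochondrial metabolites without splitting ATP themselves. Most use the gradients of sodium, protons or chloride that ATP-driven pumps set up, exchange 1 substrate for another, or let a substrate pass down its own gradient. In the developing cortex they feed glucose and amino acids to dividing progenitors, load transmitters into synaptic vesicles, clear glutamate into astrocytes and set the chloride level on which inhibitory transmission depends. The probes described here are all those whose annotated gene symbol is Slc, a family number, the letter a and a member number. The pattern took 230 of the 15094 genes named on the array, in 49 numbered families. They are carried by 249 of its 21582 probes, of which 2 name several genes and stay without a name.

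Total RNA came from neurospheres, which are balls of neural stem cells and their progeny kept in suspension, here derived from mouse cortex of gestational day 12.5. Control cultures were differentiated by taking EGF and LIF out of the medium. The treated cultures first received ethanol at 320 mg/dl for 5 days while proliferating and were then differentiated in the same way for 3 days without ethanol. All cultures had basic FGF, EGF and LIF during growth, and the titles say that differentiation took place with FGF present. Control and ethanol-treated RNA shared each of 8 two-colour arrays. Replicates 1 to 4 carried the ethanol RNA in the dye Cy3 and replicates 5 to 8 carried it in Cy5. Neither the strain of mouse nor whether arrays came from separate cultures is given in the sources used here, so p-values measure the spread between arrays, which may be technical. As these are mixed cultures, fewer cells of a type and less RNA per cell cannot be told apart.

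Each value is a log2 ratio of the 2 RNAs, centred on its array's median, and it holds no level of either RNA. Which RNA was divided by which is not known. The ratio was therefore split into a shared part, the mean of both dye orientations, and a turning part, which is the difference between the Cy5-ethanol and Cy3-ethanol means divided by 2. The shared part carries the ethanol difference if control and ethanol were divided in a fixed order, and the turning part carries it if the dyes were. In neither case does the sign tell whether ethanol-treated cells held more or less transcript. A ratio could be computed for 16274 to 18802 probes per array, and for 205 to 237 of the solute carrier probes.

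A total of 200 solute carrier probes had a ratio on 3 or more arrays per orientation and entered the fit with 15345 probes in all. They cover 46 of the 49 families, and 141 of them had a ratio on all 8 arrays. The other 49 probes were not tested, which left 43 genes with no tested probe. Among these genes are the vesicular glutamate carriers Slc17a6 and Slc17a7, the dopamine carrier Slc6a3 and the neuronal glutamine carrier Slc38a1. Of the 200, 5 probes match the pattern by name and are not carriers, such as those of the scaffold genes Slc9a3r1 and Slc9a3r2 or of opposite-strand transcripts. That leaves 193 probes of 183 named carrier genes.

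As ratios hold no level, the label of neural cultures could not be checked from these values. Ratios could be tested for all 9 neural progenitor marker genes, for 6 of 10 neuronal genes and for 8 of 9 astrocyte genes, but also for 6 of 7 endothelial and mural genes. None of these probes passed an adjusted p of 0.05 in either part. Their median shared parts were 0.53 for the progenitor list, -0.56 for the neuronal list and -0.81 for the astrocyte list. In the astrocyte list 7 of 9 probes were negative, against 53.9% of all probes tested. For the microglia and macrophage list the median was -0.19 over 4 probes. The part of cell composition in the carrier ratios was not tested. Correlations between arrays over the carrier probes were low, with a mean of 0.15 within the Cy3-ethanol arrays, 0.11 within the Cy5-ethanol arrays and -0.06 between the orientations. Over all probes tested the same means were 0.29, 0.21 and -0.08.

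Across the carriers, 2 probes stood out in the turning part at an adjusted p under 0.05 and none did in the shared part. Those 2 were Slc22a16, a carrier of carnitine and organic cations known from testis, and Slc5a2, the sodium-glucose cotransporter that recovers glucose in the kidney. They make up 1% of the 200 probes, against 1.56% of all probes tested (239 probes). Whether these 2 are ethanol or dye differences cannot be told from the values. In the shared part 0 of the 200 passed by limma, as did 0% of all probes, with 18 carriers (9%) at an unadjusted p under 0.05 against 13.9% of all probes. Of these 18, 16 (8%) were negative, against 9.01% of all probes, and 2 (1%) were positive, against 4.88%. In the turning part 16 carriers (8%) had an unadjusted p under 0.05, against 13.8% of all probes. Apart from the 0 calls in the shared part, each of these shares lay below that of all probes.

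The carrier ratios leaned to negative shared parts, as did those of all probes. Of the 200 probes, 119 (59.5%) had a negative shared part, against 53.9% of all probes tested. The median shared part was -0.17 for the carriers and -0.06 for all probes. Over probes with a ratio on all 8 arrays this gap was gone, with 54.6% of 141 carriers and 54.4% of all probes negative and medians of -0.07 for both. The middle 50% of the carriers ran from -0.67 to 0.17, and that of all probes from -0.53 to 0.37. In the turning part 53.5% of the carriers were negative against 43.1% of all probes, with medians of -0.05 and 0.11. That split rests on the centring, since with the values as deposited the shares were 25.5% and 22.8%. Parts of a size over 1, which is a ratio over 2 or under 0.5, were held by 26 carrier probes (13%) in the shared part and by 26 in the turning part, against 15.2% and 15.6% of all probes.

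**Figure D1:**
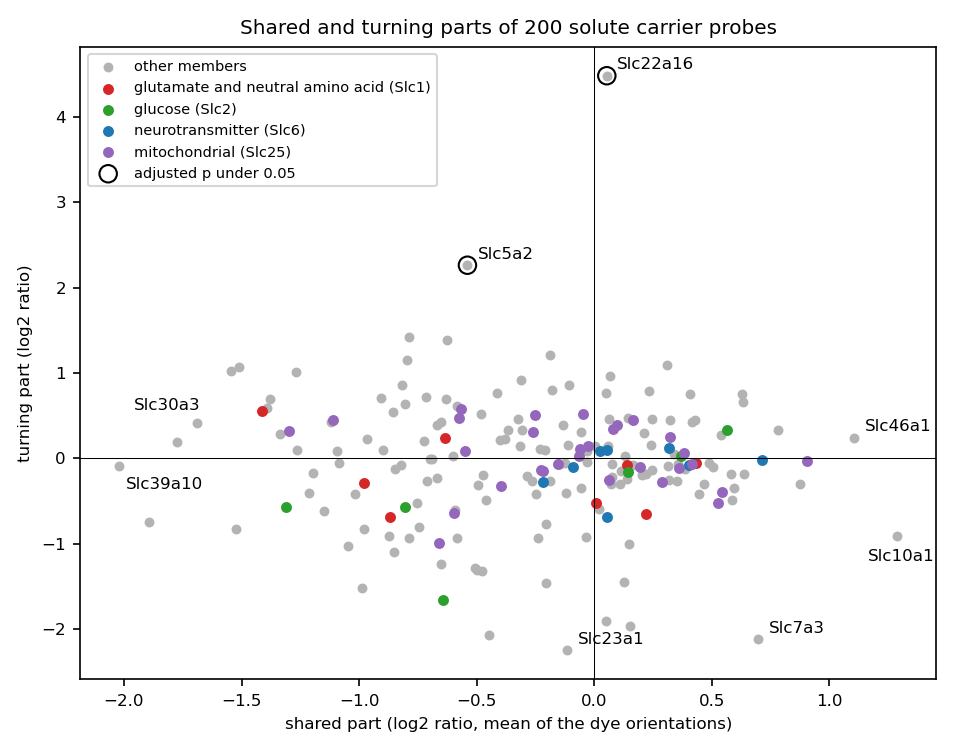
Shared part (x axis, log2 ratio) against turning part (y axis, log2 ratio) of the 200 solute carrier probes tested, 1 point per probe, coloured by family. The 2 circled probes, Slc22a16 at a turning part of 4.48 and Slc5a2 at 2.26, passed an adjusted p of 0.05, while no probe passed in the shared part.

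Slc22a16 (chromosome 10) had the widest turn of all carriers. Its ratios were -7.14, -4.57, -3.02 and -2.99 on the Cy3-ethanol arrays and 5.81, 4.10, 4.86 and 3.39 on the Cy5-ethanol arrays. Every array of the first orientation was strongly negative and every array of the second strongly positive, with no overlap. The turning part was 4.48 ± 0.50 (SE of the fit, n = 8 arrays), a ratio of 22.4-fold, with a limma adjusted p of 0.000731. Its shared part was 0.05 ± 0.50, so that the orientations cancelled in the mean. The gene kept its call in all 20 other ways of processing, with adjusted p between 8.83e-05 and 0.0103.

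Slc5a2 (chromosome 7) turned in the same sense over a smaller range. On replicates 1 to 4 it read -5.03, -1.58, -2.15 and -2.45, and on replicates 5 to 8 it read 3.61, 1.84, 0.31 and 1.14. The orientations did not overlap, and replicates 1 and 5 lay farthest from 0. The turning part was 2.26 ± 0.47, with a limma adjusted p of 0.0489. This call was lost in 11 of the 20 other ways of processing, in which the adjusted p ranged from 0.0229 to 0.3. It was lost without replicates 1, 2, 3, 4, 5, 6 or 8, each left out alone, and was kept without replicate 7.

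Slc30a3, the zinc carrier that fills synaptic vesicles, was the carrier with the smallest p in the shared part. It read -2.71, -0.94, -2.50 and -2.28 on the Cy3-ethanol arrays and -1.30, -1.47, -1.15 and -1.18 on the Cy5-ethanol arrays. All 8 arrays were negative, the orientations overlapped, and the Cy5-ethanol arrays had a mean of -1.27 ± 0.15 (SD, n = 4). The shared part was -1.69 ± 0.30, with an unadjusted p of 0.000209 and an adjusted p of 0.136. Only 2 carrier probes (1%) were negative on every array with a ratio, against 1.75% of all probes. The other was that of Slc39a5, a zinc importer with ratios on 6 arrays and a shared part of -1.26, named here after its values were seen. No carrier (0 probes) was positive on every array, against 1.82% of all probes.

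The promoters of Slc22a16 and Slc30a3 are printed as the genes with the smallest p in the turning and the shared part. They come from RefSeq on build GRCm38.p6, 250 bases before to 50 after a transcription start, and 183 of the 230 gene symbols have such an entry. Capitals mark matches on either strand to TATAAA, the GC box GGGCGG, the E-box CACGTG, the cyclic AMP response element TGACGTCA and the metal response core TGCGCNC or TGCACNC. The lines give Slc22a16 (chr10:40570112-40570411, plus strand) and both RefSeq starts of Slc30a3 (chr5:31108195-31108494 and chr5:31093478-31093777, minus strand).
Slc22a16: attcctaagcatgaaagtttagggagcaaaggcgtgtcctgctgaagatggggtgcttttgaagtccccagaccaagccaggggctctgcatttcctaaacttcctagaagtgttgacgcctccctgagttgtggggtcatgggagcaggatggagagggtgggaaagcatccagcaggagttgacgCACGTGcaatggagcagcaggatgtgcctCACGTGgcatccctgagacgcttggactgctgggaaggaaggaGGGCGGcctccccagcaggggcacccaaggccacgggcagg
Slc30a3 start 1: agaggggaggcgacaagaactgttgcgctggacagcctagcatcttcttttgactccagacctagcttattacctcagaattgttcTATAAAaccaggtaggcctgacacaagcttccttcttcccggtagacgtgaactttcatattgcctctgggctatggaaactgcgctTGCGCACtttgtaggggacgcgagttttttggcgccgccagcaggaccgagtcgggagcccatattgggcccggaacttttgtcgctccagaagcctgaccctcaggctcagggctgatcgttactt
Slc30a3 start 2: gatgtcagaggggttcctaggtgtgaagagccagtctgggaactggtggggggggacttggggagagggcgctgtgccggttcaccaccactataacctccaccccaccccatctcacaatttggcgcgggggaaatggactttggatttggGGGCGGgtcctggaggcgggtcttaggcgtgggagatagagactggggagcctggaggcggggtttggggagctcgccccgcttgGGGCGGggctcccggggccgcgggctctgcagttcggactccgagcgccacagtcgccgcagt
The Slc22a16 window held 2 E-boxes, which 7.15% of 32851 RefSeq promoter windows of 300 bases hold at least once, and 1 GC box, held by 35.7%. The first Slc30a3 window held 1 TATAAA (13.6% of windows) and 1 metal response core (25.7%), and the second held 2 GC boxes. No window held TGACGTCA, which 1.79% of all windows do. These matches describe the letters alone.

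Other carriers separated the dye orientations without an adjusted p under 0.05. In all, 15 of the 200 probes (7.5%) had no overlap between the orientations, against 10.9% of all probes. Slc23a1, a sodium-coupled vitamin C carrier, came closest. Its ratios were 1.31, 3.60, 0.91 and 2.73 on replicates 1 to 4 and 0.08, -4.22, -1.64 and -3.68 on replicates 5 to 8. The Cy3-ethanol arrays were all positive, and replicate 5 alone of the Cy5-ethanol arrays lay near 0. The turning part was -2.25 ± 0.52 (adjusted p = 0.0692), and without replicate 5 it was -2.66 with an adjusted p of 0.0234.

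Slc38a9, a lysosomal amino acid carrier that reports arginine to the growth kinase mTORC1, turned the other way. It read -1.11, -2.34, -2.20 and -3.18 with ethanol in Cy3, and -0.25, 2.14, -0.02 and 0.65 with ethanol in Cy5. The first orientation was negative throughout, and the second scattered around 0 with replicate 6 highest. Its turning part of 1.42 ± 0.37 had an adjusted p of 0.103. With the values as deposited the turning part was 1.74 and the adjusted p 0.0404, the 1 carrier call gained there.

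The sodium-proton exchangers Slc9a3 and Slc9a2, which trade intracellular protons for sodium, had negative turning parts. For Slc9a3 the ratios were 1.96, 1.84, 4.40 and 0.25 and then -0.06, -2.69, -0.64 and -3.86, a turning part of -1.96 ± 0.54 (adjusted p = 0.122). For Slc9a2 they were -0.67, 1.44 and 0.82 on replicates 1, 2 and 4 and -0.89, -2.78, -1.75 and -4.61 on replicates 5 to 8, a turning part of -1.52 ± 0.50 (adjusted p = 0.211). The orientations did not overlap in either, though the nearest arrays lay close together. Over the 5 exchangers of the family measured, the median per array was positive with ethanol in Cy3 (0.19 to 0.64) and negative with ethanol in Cy5 (-1.21 to -0.06), while the median of their turning parts was 0.33, with 3 of 5 positive. The arginine and lysine carrier Slc7a3 had ratios of 5.24, 1.04 and 2.17 on replicates 1 to 3 and of 0.17, -2.45, 0.12 and -3.52 on replicates 5 to 8. Its turning part was -2.12 ± 0.63 (adjusted p = 0.167), with replicate 1 the highest value.

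**Figure D2:**
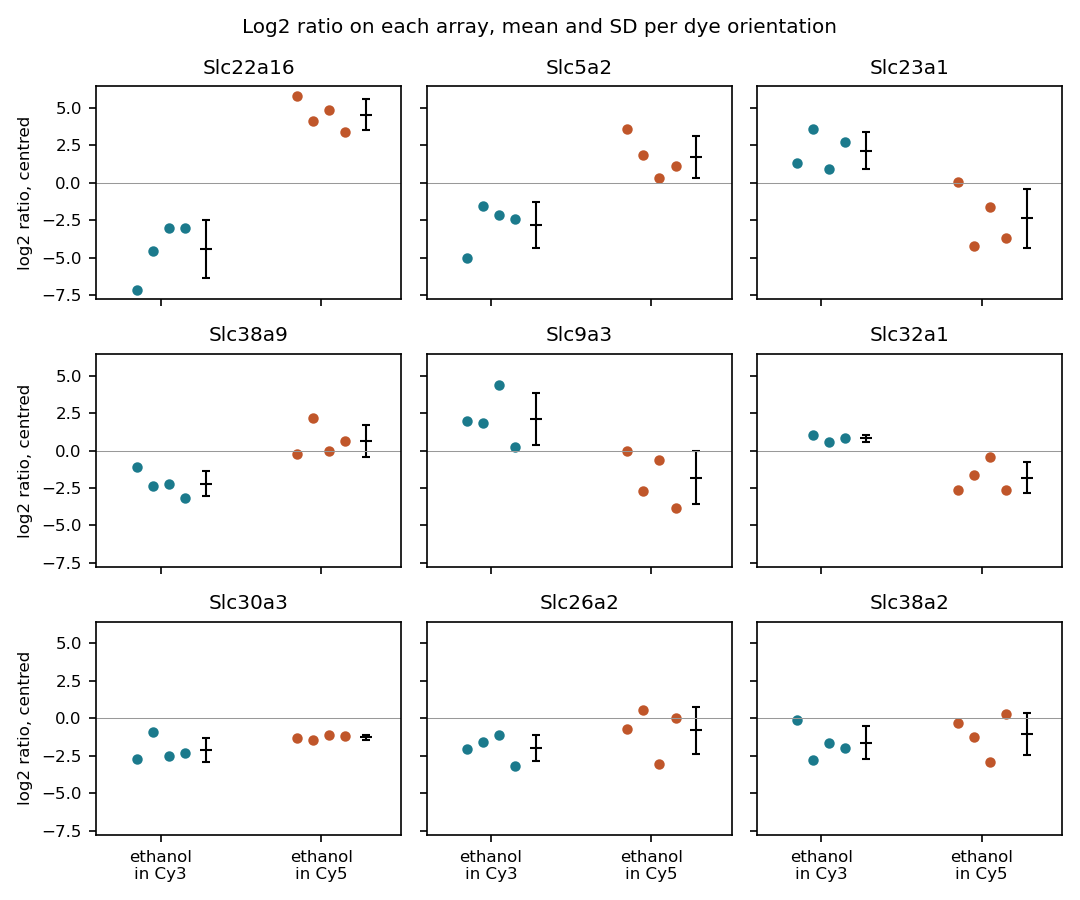
Log2 ratio (y axis, centred on each array's median) of 9 carriers on each array, grouped by the dye of the ethanol RNA, with mean and SD (n = 4 arrays per orientation, 3 for Slc32a1 with ethanol in Cy3). Slc22a16 and Slc5a2 change sign between the orientations, while Slc30a3 is negative on all 8 arrays.

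The families Slc17, Slc18 and Slc32 hold the carriers that load glutamate, acetylcholine and GABA into synaptic vesicles, along with Slc17 members of other membranes. Of their 8 probes 4 were tested, and none passed an adjusted p of 0.05. Slc32a1, which loads GABA and glycine, read 1.01, 0.58 and 0.86 on replicates 2 to 4 and -2.62, -1.61, -0.42 and -2.60 on replicates 5 to 8. All ratios were positive with ethanol in Cy3 and all were negative with ethanol in Cy5. The 0.58 on replicate 3, however, equals a value shared by 395 probes of that array. Taking the array's highest value as a ratio of 100000, it is that of a ratio of exactly 1 with a constant added. That reading was not tested, and the sign of this value cannot be relied on. The turning part of Slc32a1 was -1.31 ± 0.37 (adjusted p = 0.145). Slc18a3, which loads acetylcholine, read 1.95, 3.34, -0.97 and 2.19 and then -0.72, -2.09, -0.52 and -6.77. Here replicate 3 lay among the Cy5-ethanol arrays and replicate 8 lay far below the rest, and the turning part was -2.08 ± 0.71 (adjusted p = 0.222). The remaining probes, of the lysosomal sialic acid carrier Slc17a5 and the vesicular nucleotide carrier Slc17a9, had turning parts of 0.21 and -0.80. All 4 shared parts were negative, between -0.74 and -0.45, and none had an unadjusted p under 0.05.

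Among the zinc carriers, the exporters of the Slc30 family had mostly negative shared parts, while the importers of Slc39 were evenly split. Of 7 Slc30 probes 6 were negative, with a median of -0.71. Of 10 Slc39 probes 5 were negative and 5 positive, with a median of -0.11. Together, 11 of 17 probes had a negative shared part, with a median of -0.65, where 53.9% of all probes tested were negative. By limma 4 of the 17 had an unadjusted p under 0.05 in the shared part, a share above the 13.9% of all probes tested. In the turning part 2 of the 17 did, a share below the 13.8% of all probes. The median over the 17 probes was below 0 on every array, from -1.30 on replicate 5 to -0.05 on replicate 1. Over all 200 solute carrier probes the median was below 0 on 7 of 8 arrays, from -0.45 to 0.08. Taken apart, the Slc30 median was positive on replicates 3 (0.11) and 8 (0.06), and the Slc39 median on replicate 1 (0.05). Beside Slc30a3 and Slc39a5, the 4 probes at an unadjusted p under 0.05 were those of Slc39a10 and Slc30a9. Slc39a10, an importer of the plasma membrane, read -5.73, 1.27, -0.83 and -2.45 with ethanol in Cy3 and -2.09, -1.39, -4.59 and -0.35 with ethanol in Cy5. It had the most negative shared part of all carriers, -2.02 ± 0.71 (adjusted p = 0.265), and 1 positive array among 8. Slc30a9, linked to mitochondrial zinc export, read -1.02, -2.13, 0.11 and -0.20 and then -1.10, -2.50, -2.62 and -0.25, a shared part of -1.21 ± 0.39 (adjusted p = 0.24). At the other end, Slc30a6 of the Golgi reached 0.88. No zinc carrier passed in either part.

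The bicarbonate, chloride and sulphate exchangers of Slc4 and Slc26 had a median shared part of -0.67 over 10 probes. Of the 10, 7 were negative and 1 had an unadjusted limma p under 0.05, against 53.9% and 13.9% of all probes tested. The highest was the red cell anion exchanger Slc4a1 at 0.63, and the lowest was Slc26a2. Slc26a2, the sulphate carrier needed for cartilage proteoglycans, read -2.07, -1.60, -1.10 and -3.15 on replicates 1 to 4 and -0.72, 0.55, -3.04 and 0.00 on replicates 5 to 8. The Cy3-ethanol arrays were all negative and the Cy5-ethanol arrays spread on both sides of 0. Its shared part was -1.39 ± 0.43 (adjusted p = 0.232). In other families, the thyroid iodide carrier Slc5a5 read -4.92, -0.23, -1.55 and -3.59 and then -0.47, -0.86, 0.09 and -0.84, a shared part of -1.55 ± 0.48 (adjusted p = 0.232). The dicarboxylate carrier Slc13a3 had a shared part of -1.38 ± 0.51 (adjusted p = 0.285) and 6 negative arrays of 8.

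Chloride carriers of the Slc12 family showed no call. Slc12a2 brings chloride into immature neurons, and Slc12a5 expels it from mature ones. Slc12a2 read -2.14, 0.07, 1.54 and -4.05 on replicates 1 to 4 and -7.83, -1.80 and 1.69 on replicates 5, 7 and 8. Its shared part of -1.89 had an SE of 1.06, the widest among the genes named here, and the adjusted p was 0.456. Slc12a5 read -1.10, -0.65, -1.22 and -1.74 and then -1.31, 0.82 and 1.55 on replicates 5, 6 and 8. The first orientation was negative throughout and replicate 5 lay within its range, giving a turning part of 0.77 ± 0.41 (adjusted p = 0.459).

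**Figure D3:**
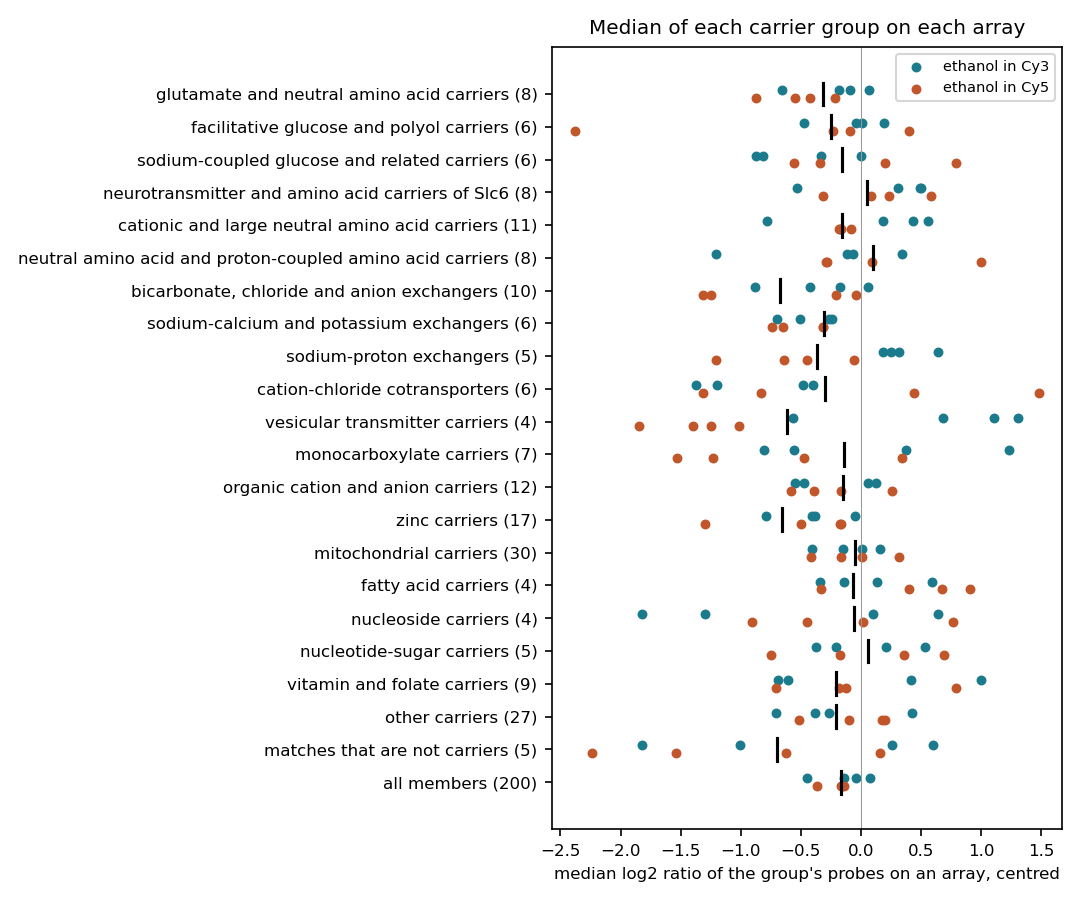
Median log2 ratio (x axis) of each carrier group on each array, coloured by the dye of the ethanol RNA. Numbers in brackets are probes tested, and black bars are the median of the probes' shared parts. The zinc carriers and the sodium-calcium and potassium exchangers have negative medians on all 8 arrays, where all 200 solute carrier probes have them on 7. The medians of the group labelled vesicular (Slc17, Slc18 and Slc32) lie between -1.85 and -1.01 on the Cy5-ethanol arrays.

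The glutamate and neutral amino acid carriers of Slc1 were covered by 8 probes of 6 genes. None passed after adjustment, and 2 of the 8 had an unadjusted limma p under 0.05 in the shared part, against 13.9% of all probes tested. The 8 shared parts divided evenly, 4 negative and 4 positive. The negative ones belonged to the glutamate carriers. Slc1a1, found on neurons, had 2 probes with shared parts of -1.41 ± 0.50 (adjusted p = 0.265) and -0.64 ± 0.57. The first read -2.92, -1.96, -3.23 and 0.25 and then -2.04, 1.32, -2.00 and -0.71. Slc1a2, the main glutamate carrier of adult astrocytes, had a shared part of -0.87 ± 0.66 (adjusted p = 0.575), with replicate 6 at -4.77 the lowest.

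Slc1a3, the glutamate carrier of radial glia and astrocytes, gave different answers from its 2 tested probes. One read -2.16, -0.78, 0.42 and -0.22 and then -1.54, -1.30, -1.04 and -1.22, a shared part of -0.98 ± 0.33 (adjusted p = 0.257). The other read 1.24, 0.86, 0.11 and -0.11 and then -0.58, -0.54, -0.05 and -0.88, a shared part of 0.01 ± 0.29. Both probes were negative on all Cy5-ethanol arrays and had opposite signs on replicates 1 and 2. Slc1a2 and Slc1a3 also belong to the astrocyte marker list, whose median shared part was -0.81. Further genes had shared parts of 0.14 (Slc1a4) and 0.43 (Slc1a5), both carriers of neutral amino acids, and 0.22 (Slc1a6), the glutamate carrier of Purkinje cells. The Slc1 median of -0.31 moved to between 0.0006 and 0.10 without any 1 of replicates 2 to 6, without the 3 arrays whose code ends in r, or with probes measured on all 8 arrays.

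The glucose carriers of Slc2 were split by isoform. Slc2a1, the widely expressed glucose carrier of progenitors and the blood-brain barrier, read -0.90, -0.51, 0.19 and 0.30 with ethanol in Cy3 and -1.06, -2.31, -0.51 and -1.64 with ethanol in Cy5. The Cy5-ethanol arrays were all negative, and the shared part was -0.81 ± 0.32 (adjusted p = 0.309). Slc2a3, the neuronal glucose carrier, had a shared part of -1.31 ± 0.74 (adjusted p = 0.457) that leaned on replicate 6 at -6.83. Slc2a4, the insulin-responsive carrier, read -2.58, 2.43, 1.45 and 2.76 and then -2.98, -0.66 and -3.25 on replicates 6 to 8. Replicate 1 was the exception among its Cy3-ethanol arrays, and the turning part was -1.66 ± 0.66 (adjusted p = 0.313). The fructose carrier Slc2a5, the intracellular carrier Slc2a8 and the urate carrier Slc2a9 had shared parts of 0.57, 0.37 and 0.14. Over the 6 genes the medians were -0.25 (shared) and -0.36 (turning), and neither sign was stable. The shared median ran from -0.57 to 0.29 over the alternatives and was positive without replicate 1 (0.13), replicate 6 (0.29) or replicate 7 (0.04). It was also positive with values on all 8 or on 2 or more arrays per orientation (0.14), with exact 0 kept (0.08) and with the highest value kept (0.11). The turning median was 0.24 without replicate 6.

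The tested transmitter carriers of Slc6 gave the narrowest range of these families. Of 13 probes on the array, 8 probes of 7 genes were tested. Their shared parts ran from -0.22 to 0.71 with a median of 0.05, and their turning parts from -0.69 to 0.12. Over the alternatives the shared median ran from -0.07 to 0.26. None had an unadjusted p under 0.05. The noradrenaline carrier Slc6a2 was positive in the shared part by both tested probes, 0.71 ± 0.43 and 0.40 ± 0.32. A further Slc6a2 probe, not tested, had ratios on 5 arrays, all positive, from 1.76 to 5.70. The serotonin carrier Slc6a4 was at 0.02, the glycine carrier Slc6a9 at 0.05, the GABA carrier Slc6a11 at 0.32 and the taurine carrier Slc6a6 at -0.22. The spread between arrays was wide for some of them, with Slc6a9 running from -2.07 on replicate 5 to 3.52 on replicate 4. Slc6a19, the neutral amino acid carrier of gut and kidney, and Slc6a21 had shared parts of -0.09 and 0.05. The opposite-strand transcript Slc6a19os is not a carrier and is left out of these ranges. It had ratios on 7 arrays and a shared part of -1.52 ± 0.88 (limma adjusted p = 0.465).

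**Figure D4:**
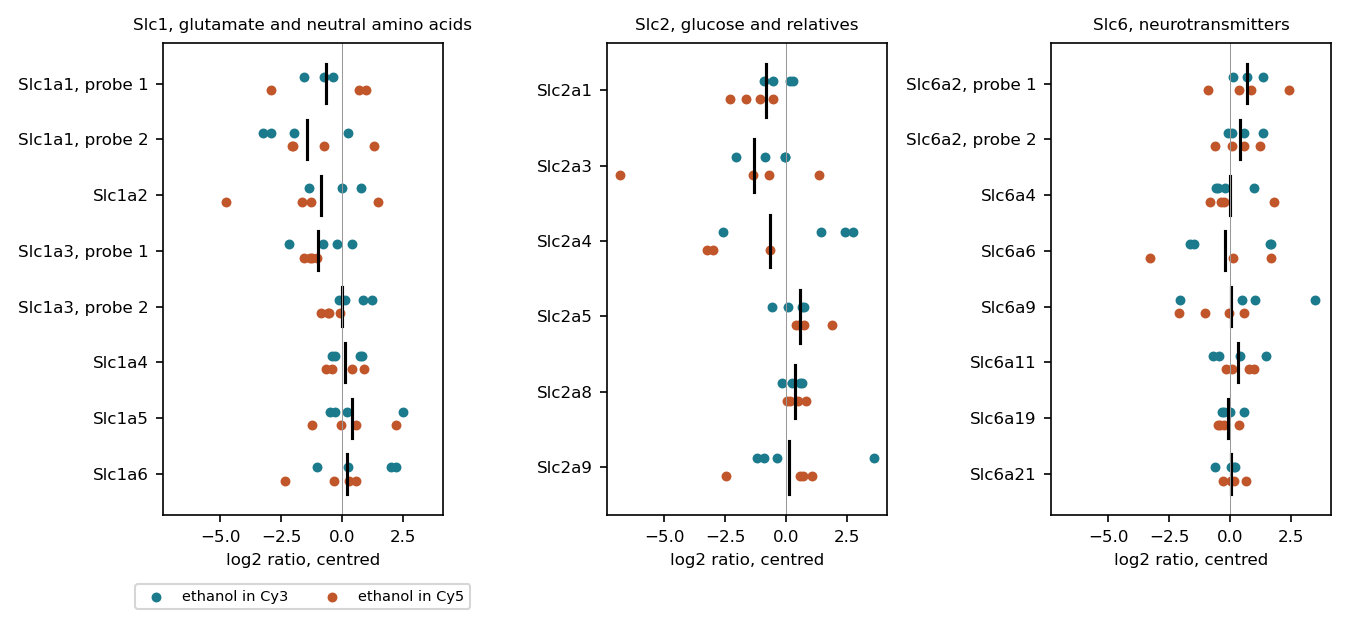
Log2 ratio (x axis, centred) of every tested carrier probe of the Slc1, Slc2 and Slc6 families on each array. Points are coloured by the dye of the ethanol RNA, and black bars mark the shared part. Points of both orientations mix for most genes, and the Slc6 bars lie between -0.22 and 0.71.

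Amino acid carriers of other families were also without a call. Slc38a2, a sodium-coupled carrier of small neutral amino acids that cells raise when starved of them, read -0.11, -2.75, -1.65 and -1.98 and then -0.32, -1.25, -2.95 and 0.32. With 7 of 8 arrays negative its shared part was -1.34 ± 0.43 (adjusted p = 0.243). Slc3a2 and Slc7a5 form the heterodimer that exchanges large neutral amino acids, and their shared parts were 0.32 ± 0.34 and 0.58 ± 0.43. Slc7a11, the cystine carrier whose partner is also Slc3a2, had a shared part of -0.48 ± 0.76 and a turning part of -1.32 ± 0.76 (adjusted p = 0.491). The lactate carriers Slc16a1 and Slc16a3 had shared parts of -0.14 ± 0.37 and -0.85 ± 0.63, and the nucleoside carrier Slc29a1 was at 0.20 ± 0.52. Slc46a3, a lysosomal carrier, had ratios of -1.81, -3.30, -1.82 and -2.17 and then -0.74, 0.60 and -0.63 on replicates 5, 7 and 8. Its orientations did not overlap, and it had a shared part of -1.27 ± 0.36 (adjusted p = 0.228) and a turning part of 1.01 ± 0.36 (adjusted p = 0.25).

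Only 2 carriers had a positive shared part at an unadjusted p under 0.05, both named here after their values were seen. Slc10a1, the bile acid carrier of hepatocytes, had a shared part of 1.29 with an unadjusted limma p of 0.0276. It had ratios on 6 arrays, with replicate 8 at -1.45. Its orientations did not overlap, and its turning part was -0.91 (limma adjusted p = 0.46). Slc46a1, the proton-coupled folate carrier, had 1.11 with an unadjusted limma p of 0.0452. Neither passed after adjustment.

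The mitochondrial carriers of Slc25, the largest family with 30 genes tested, were centred near 0. There were 17 negative and 13 positive shared parts with a median of -0.05, which ran from -0.20 to 0.03 over the alternatives, and the median turning part was 0.04. The adenine nucleotide carriers, which exchange ATP for ADP across the inner membrane, were tested by 3 genes. Slc25a5 read 1.49, 0.93, 1.06 and 0.72 with ethanol in Cy3 and -0.18, 0.41, -0.05 and -0.16 with ethanol in Cy5. Its orientations did not overlap, but its ratios on replicates 5 and 7 equal a value shared by 258 and 290 probes of those arrays. If each array's highest value is taken as a ratio of 100000, that value is a ratio of exactly 1 with a constant added. What such tied values stand for is not given in the sources used here, so the closeness of the Cy5-ethanol arrays cannot be read as precision. Of the 200 carrier probes 22 had such a value on 1 or 2 arrays, and neither Slc22a16 nor Slc5a2 had one. Slc1a1, Slc1a2, Slc25a4, Slc25a26, Slc25a36 and Slc32a1 each had one on 1 array. The shared part of Slc25a5 was 0.52 ± 0.27 (adjusted p = 0.412) and its turning part was -0.52 ± 0.27 (adjusted p = 0.436). Slc25a4 had a shared part of 0.10 ± 0.55, with replicate 1 at -3.64 and replicate 8 at 2.15. Slc25a31, the form known from testis, had a shared part of -0.60 ± 0.83.

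At the low end of the family stood Slc25a16, which is linked to coenzyme A, and Slc25a37, which brings iron to haem synthesis. Slc25a16 read -3.03, -1.56, 0.07 and -1.93 and then -0.59, -2.70, -1.93 and 1.30, a shared part of -1.30 ± 0.49 (adjusted p = 0.295). It was the 1 mitochondrial carrier of 30 with an unadjusted limma p under 0.05 in the shared part, against 13.9% of all probes tested. Slc25a37 had -1.11 ± 0.70 (adjusted p = 0.499), while its paralog Slc25a28 had -0.05 ± 0.32. Slc25a36, a pyrimidine nucleotide carrier, had ratios on 6 arrays that ran from -3.72 to 4.12, a shared part of -0.66 ± 0.91. At the high end stood Slc25a38, the glycine carrier of haem synthesis, at 0.91 ± 0.47 (adjusted p = 0.422). The S-adenosylmethionine carrier Slc25a26 had the largest positive turning part, 0.58 ± 0.38 (adjusted p = 0.557).

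**Figure D5:**
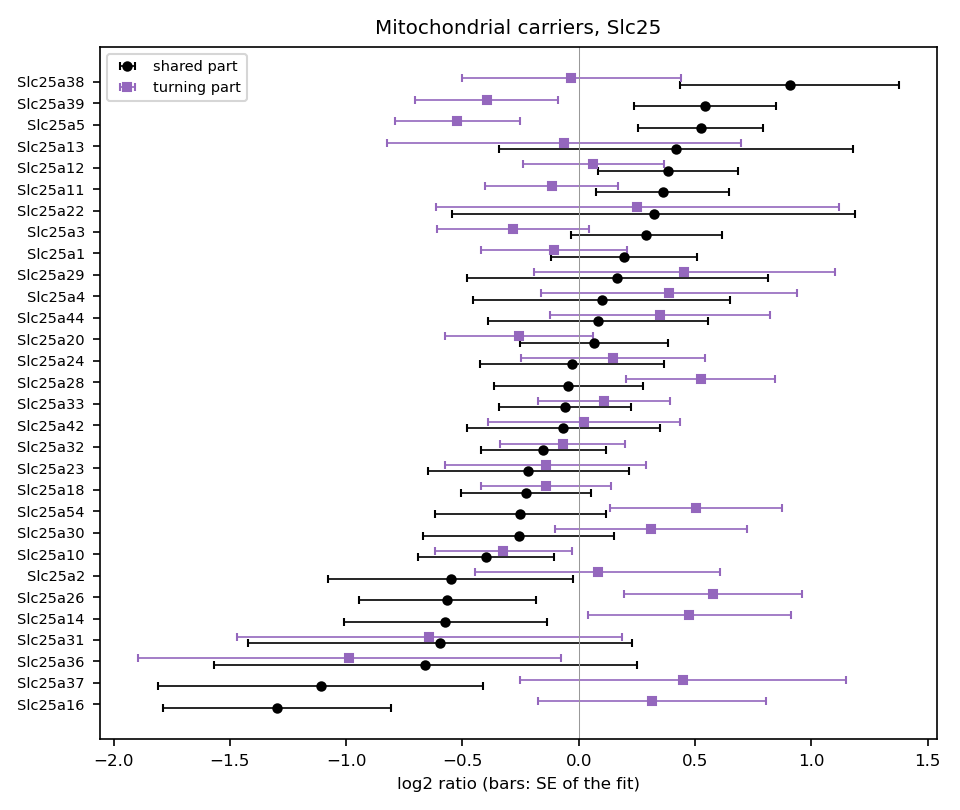
Shared part (black circles) and turning part (purple squares) of the 30 mitochondrial carriers tested, in log2 ratio (x axis) with the SE of the fit as bars, ordered by shared part. The shared parts run from -1.30 for Slc25a16 to 0.91 for Slc25a38.

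Probes of the same gene gave a view of the measurement itself. In 11 genes with 2 tested probes each, the probes had the same sign in 7 for the shared part and in 6 for the turning part. The widest gap in the shared part was in Slc8a1, the sodium-calcium exchanger, at -1.15 and 0.58. Probes of 1 gene share a target and are not replicates.

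Genes that work with the carriers were followed through 6 lists of 78 tested probes, and none passed in either part. By limma 13 of the 78 had an unadjusted p under 0.05 in the shared part, a share above the 13.9% of all probes. In the turning part 6 of the 78 did, a share below the 13.8% of all probes. The medians were 0.10 (shared) and -0.02 (turning). Of 17 probes for the pumps that set sodium and proton gradients, 12 had a positive shared part, with a median of 0.12. Of 13 probes for the mitochondrial outer membrane and carrier import, 11 were positive, with a median of 0.31. The median over that list was positive on every array (0.03 to 0.86). Among all 15345 probes tested, 7074 had a positive shared part. By limma 3 of the 17 and 1 of the 13 had an unadjusted p under 0.05 in the shared part, against 13.9% of all probes. Vdac1, the outer membrane channel for metabolites, read 0.86, 0.90, 0.85 and 0.47 and then 0.58, 0.54, 1.38 and 0.17. Positive on all 8 arrays, it had a shared part of 0.72 ± 0.28 (adjusted p = 0.302).

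For glucose and lactate use, the median shared part over 9 probes was -0.01. Of the 9, 2 had an unadjusted limma p under 0.05, against 13.9% of all probes tested. The hexokinase Hk2 had shared parts of 0.85 (adjusted p = 0.303) by 1 probe and -0.13 (adjusted p = 0.899) by the other. Lactate dehydrogenase Ldha was at 1.11 (adjusted p = 0.271). The enzymes of glutamate and GABA had a median of 0.00 over 7 probes, with Glud1 at -0.64 and Got2 at 0.76. Partner and regulator proteins had 6 of 7 negative shared parts, against 53.9% of all probes tested, and a median of -0.36. Among them Stx1a, a fusion protein of the presynaptic membrane that binds Slc6 carriers, read -2.29, -1.13, -0.30 and -1.53 and then -2.22, 0.24, -1.75 and -0.82. With 7 of 8 arrays negative its shared part was -1.22 ± 0.37 (adjusted p = 0.231).

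Carriers that the symbol pattern misses had a median shared part of -0.04 over 25 probes. The synaptic vesicle protein Sv2a was negative on all 7 arrays with a ratio, from -5.19 to -0.54, with a shared part of -1.92 ± 0.57 (adjusted p = 0.231). Ucp3, an uncoupling protein of the mitochondrial carrier fold, read 1.52, 1.82, 0.90 and 1.24 and then -5.62, -2.82, -3.26 and 0.09. Its orientations did not overlap, and the turning part was -2.14 with an adjusted p of 0.0858.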

How the data were processed

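The authors deposited 1 log2 ratio for each probe on each array and no intensities in the table used. Neither scanner nor normalization is given in the sources used here. Exact 0 and each array's highest value, ratios that could not be computed, were treated as missing. Each array was centred on its median, and probes with values on at least 3 arrays per orientation entered 1 limma fit (version 3.58.1, lmFit then eBayes, under R 4.3.3) with a shared and a turning coefficient. Benjamini-Hochberg adjustment ran over the 15345 tested probes, and 0.05 was the threshold. The fit was also run on simulated data with normal noise, independent between arrays. That run checks the code and not the calls made here, as these arrays need not have such noise. SE is that of the moderated fit, and the number of arrays limits the precision.

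Probes were named by the platform's annotation, and 247 of the 249 were matched to a RefSeq gene. The members and lists were chosen with earlier results of these data known. Named genes were those with a call, the 10 with the smallest p in each part, all of Slc1, Slc2 and Slc6, the 5 largest in each part of Slc25, and a set of brain carriers named whatever their values. Slc4a1, Slc8a1, Slc10a1, Slc17a5, Slc17a9, Slc30a6, Slc39a5, Slc46a1 and the partner genes were named after their values were seen. No set of genes was tested as a whole. Arrays sharing a code number did not deviate together (correlations of 0.01, -0.02 and 0.04) and were not taken as pairs. Alternatives were other centrings, other treatments of missing values, other variance models, the array code as a block, and leaving out each array or all arrays with a code ending in r.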

Additional observations from a re-analysis of the deposited data

Results flagged for a closer look

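In 98 groups of 4 arrays, 1 value was looked for that stands far from the other 3, and 3 were found, where about 1 in 20 groups, or 4.9, would be found by chance. Slc2a9 read -2.44 on replicate 6, while the other Cy5-ethanol arrays read 0.59 to 1.09. For Slc25a4, replicate 8 gave 2.15 and the remaining Cy5-ethanol arrays gave -0.25 to 0.09. The median over all solute carrier probes was -0.37 on replicate 5, against -0.17 to -0.14 on replicates 6 to 8.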

How the results depend on the processing

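The 20 alternatives never gave a solute carrier call in the shared part. The 2 calls in the turning part became 1, Slc22a16, with values on 2 or more arrays per orientation, with each array's highest value kept, with array weights and without the arrays whose code ends in r. Leaving out 1 array at a time gave 1 to 2 calls, and without replicate 5 the second call was Slc23a1 in place of Slc5a2. As deposited there were 3, with Slc38a9 added. The cause of these changes was not tested. The median turning part, -0.05 when centred, was 0.27 as deposited and 0.14 with exact 0 kept, where the median of all probes was 0.42 and 0.21 in place of 0.11. The array code as a replicate block left 2 calls and changed none. Without replicate 8, 1 partner probe was called in the turning part.

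Carriers at an unadjusted p under 0.05 in the turning part numbered 27 of 200 as deposited, 29 of 248 with exact 0 kept and 10 of 172 without replicate 8, against 16 of 200. The shares of all probes in these settings were 20.4%, 14.5% and 11.6%, against 13.8%. Of the 57 probes named, 33 had a shared part over 1 SE, and none of those changed sign in any alternative. Of the 30 with a turning part over 1 SE, 2 changed sign. Among all 57, 17 changed sign at least once in the shared part and 25 in the turning part. The table holds no intensities, so dim probes cannot be told from bright ones.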
